A study of Mus musculus with 6 samples.

Results

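Genes for the clearance of dying cells were followed in RNA of mouse bone marrow neutrophils: the receptor genes Axl, Mertk, Timd4 and Stab1, the bridging ligand genes Gas6, Pros1 and Mfge8, and the cholesterol efflux genes Nr1h3 and Abca1. These 9 were taken by name from the 51789 genes of a deposited count table. All 9 were present, each under 1 Ensembl identifier, and all 9 passed the filter on low counts that left 10397 genes for testing. The list was drawn up with the difference between the groups of these samples already known, so the members' fold changes are a description and support no claim about the list. The samples are 3 libraries labelled KO, a knockout of Snph, and 3 labelled WT, its control. Snph encodes syntaphilin, a protein that anchors mitochondria. All 6 are neutrophils taken with Ly6G beads from bone marrow, at a stated purity above 95%, and sequenced with the Lexogen QuantSeq kit, which reads tags at the 3′ end of polyadenylated transcripts. The labels do not state strain, age, sex, the deleted part of the gene or whether each library came from a separate mouse. The p-values therefore rest on library-to-library spread that may be technical.

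Cells that die by apoptosis expose phosphatidylserine, and phagocytes remove them in a process called efferocytosis. Some receptors, such as Timd4 and Stab1, bind the lipid themselves, whereas Axl and Mertk of the TAM family of receptor tyrosine kinases (Tyro3, Axl, Mertk) reach it through the bridging proteins Gas6 and protein S, the product of Pros1. Mfge8 joins the lipid to integrins of the alpha v family. The engulfed cell brings cholesterol, whose derivatives activate liver X receptors, and these raise export pumps such as Abca1. In bone marrow this work is best known from resident macrophages, which clear aged neutrophils.

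Total counts ran from 7179569 to 9165218 in the KO-labelled and from 7018388 to 9664381 in the WT-labelled libraries, and levels are given in CPM (counts per 1000000, scaled by TMM factors), in which 1 count was worth 0.102 to 0.147. A 3′ tag is counted per transcript, so CPM was not divided by gene length, and levels are compared between libraries for 1 gene at a time. Counts of the targeted gene did not follow the labels: Snph had 5, 2 and 8 counts in KO 1, 2 and 3 and 0 counts in every WT-labelled library. With only 3′ tags read and the deleted part not stated, these few counts cannot decide whether the labels are right. Directions therefore rest on the labels as they stand. In the fit across all genes (edgeR quasi-likelihood, Benjamini-Hochberg adjusted p under 0.05) 107 of 10397 genes, 1.03%, differed; 82 of them fell and 25 rose, so that 76.6% were lower. That share was 88.9% of 162 called genes with scaling to total counts alone, 65.5% of 174 with DESeq2 and 60.3% of 287 with no filter on low counts. Leaving out KO 1, 2 or 3 gave 67, 61 and 97 called genes, and leaving out WT 1, 2 or 3 gave 57, 49 and 62. Scaling to total counts moved the median of all genes by -0.10 on the log2 scale. The medians below stand beside 0.01 over all genes tested, which was not subtracted from them.

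Among the 9 genes, Axl, Mertk, Timd4 and Nr1h3 were at lower levels in the KO-labelled libraries, by 2.12-fold to 4.48-fold. Abca1 was lower in every KO-labelled library too but did not pass the threshold, and Gas6, Pros1, Mfge8 and Stab1 had overlapping groups. The count of members past the threshold was thus 4 of 9, all lower, where 0.789% of all genes were called lower and 0.24% higher. No member was called higher by edgeR, DESeq2 or limma-voom, or had an unadjusted p under 0.05 in that direction. The groups did not overlap for 5 of 9 members, against 16.8% of all genes. Because the members were chosen on this contrast, nothing is read from either share. Their median log2 fold change was -0.79. In bulk RNA, fewer cells of a type and less RNA per cell cannot be told apart, which holds for every level given here.

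**Figure D1:**
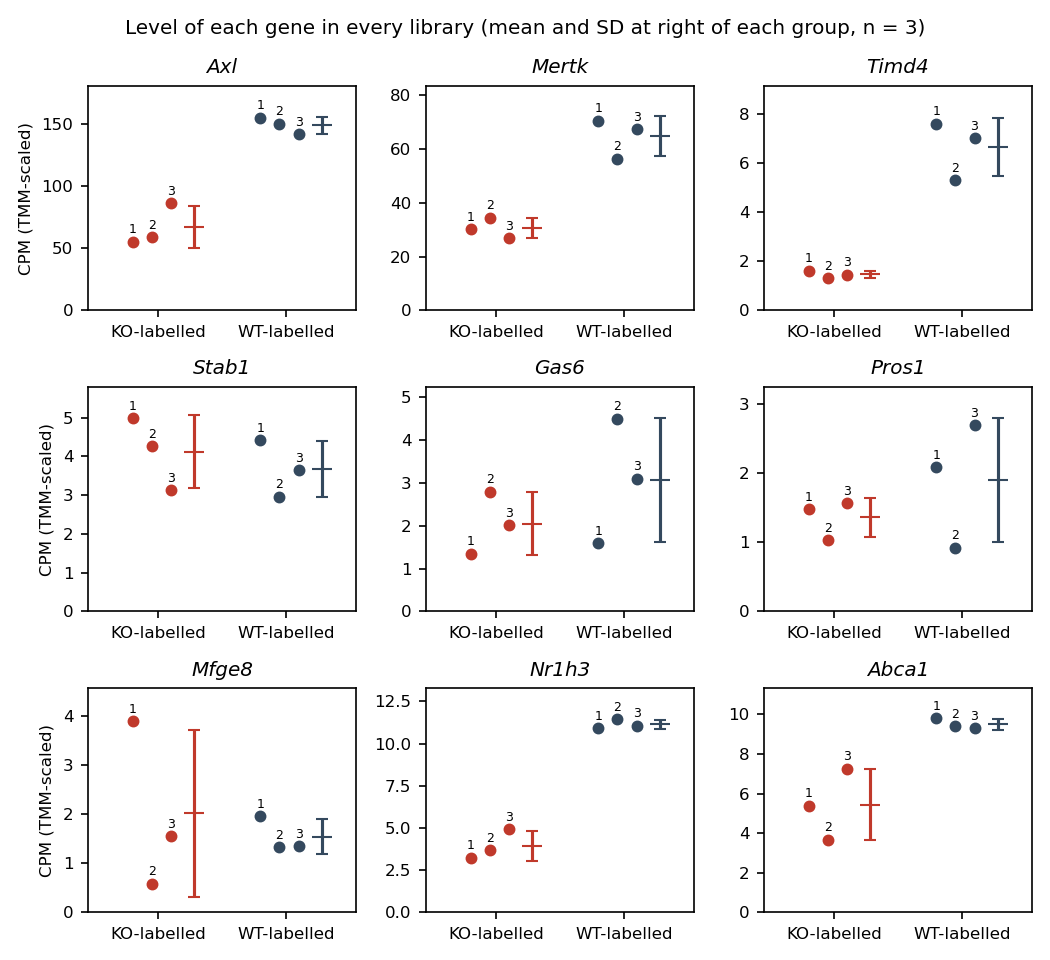
Level of each of the 9 genes in CPM (vertical axis, from 0) in KO-labelled (red, left) and WT-labelled (blue, right) libraries; points are libraries 1 to 3 and the bar at the right of each group is the mean with its SD (n = 3). Axl, Mertk, Timd4, Nr1h3 and Abca1 have no overlap between the groups, whereas the points of Stab1, Gas6, Pros1 and Mfge8 are interleaved.

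The promoters of the 4 lower genes are shown for what their sequences share or lack, with that of Abca1 as a known target of liver X receptors. All 9 members had a promoter, 250 bases before to 50 after the gene's start, in the RefSeq table of GRCm38.p6. RefSeq and GENCODE starts lay within 45 bases of each other for 8 members, whereas both RefSeq starts of Nr1h3 lie 7718 and 7799 bases inside the longer GENCODE gene. Both strands were searched for AGGTCA (the core of many nuclear receptor elements), GAGGAAGT (a site of the transcription factor PU.1) and CACGTG (the E-box). They were also searched for a DR4 element, the kind bound by liver X receptors. It was taken as copies of AGNTCA or GGNTCA in the same direction with any 4 bases between them. A DR4 element holds AGGTCA where its letters allow, so those searches overlap. Sequences run 5′ to 3′ on the gene's strand, and capitals mark the matches.
Axl promoter (chr7:25788684-25788983, minus strand): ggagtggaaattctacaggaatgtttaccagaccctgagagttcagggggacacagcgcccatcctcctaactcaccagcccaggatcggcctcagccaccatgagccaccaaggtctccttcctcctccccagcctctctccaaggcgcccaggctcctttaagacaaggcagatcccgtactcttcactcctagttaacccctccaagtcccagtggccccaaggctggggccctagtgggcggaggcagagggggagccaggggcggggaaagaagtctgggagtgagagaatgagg
Mertk promoter (chr2:128698665-128698964, plus strand): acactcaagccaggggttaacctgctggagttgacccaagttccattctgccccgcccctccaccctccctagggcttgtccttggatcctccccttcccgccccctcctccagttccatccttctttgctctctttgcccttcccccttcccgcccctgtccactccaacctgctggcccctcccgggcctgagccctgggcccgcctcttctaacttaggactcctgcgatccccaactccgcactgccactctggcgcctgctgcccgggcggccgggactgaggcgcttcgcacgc
Timd4 promoter (chr11:46810549-46810848, plus strand): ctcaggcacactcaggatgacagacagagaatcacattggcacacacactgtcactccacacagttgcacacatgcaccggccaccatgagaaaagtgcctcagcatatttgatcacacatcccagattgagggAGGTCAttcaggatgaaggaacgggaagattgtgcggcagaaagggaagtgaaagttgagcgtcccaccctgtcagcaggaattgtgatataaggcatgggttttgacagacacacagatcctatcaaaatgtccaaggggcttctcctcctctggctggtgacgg
Nr1h3 promoter (chr2:91195067-91195366, minus strand): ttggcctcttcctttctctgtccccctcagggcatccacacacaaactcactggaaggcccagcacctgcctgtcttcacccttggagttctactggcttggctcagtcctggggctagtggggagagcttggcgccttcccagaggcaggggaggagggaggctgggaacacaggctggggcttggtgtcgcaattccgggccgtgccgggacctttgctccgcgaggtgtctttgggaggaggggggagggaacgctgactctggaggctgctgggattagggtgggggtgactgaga
Abca1 promoter (chr4:53159846-53160145, minus strand): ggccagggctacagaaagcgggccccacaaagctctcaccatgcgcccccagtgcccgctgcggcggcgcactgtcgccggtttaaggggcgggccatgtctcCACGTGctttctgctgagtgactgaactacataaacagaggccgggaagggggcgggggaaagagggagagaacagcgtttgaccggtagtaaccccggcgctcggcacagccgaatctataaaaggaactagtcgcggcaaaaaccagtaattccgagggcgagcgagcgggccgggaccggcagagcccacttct

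The Timd4 promoter held AGGTCA once, starting 116 bases before the gene's start, and this motif occurred in 16.3% of the 32851 promoters of the table. The Abca1 promoter held CACGTG, whose letters read the same on both strands, starting 147 bases before the start; 7.15% of promoters held it. The promoters of Axl, Mertk, both starts of Nr1h3, Gas6, Pros1, Stab1 and Mfge8 held no match to any of the motifs. The DR4 pattern as searched, found in 0.338% of all promoters, and GAGGAAGT, in 3.20%, were matched in no member. Both searches took only the stated letters. Elements with other letters, in Abca1 or elsewhere, would be missed, so no lack of such elements is shown. A match describes letters in this window only and is not evidence of binding.

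Axl (ENSMUSG00000002602, chromosome 7, 25757273 to 25788705, minus strand, mm10), a receptor tyrosine kinase with high affinity for Gas6, had 55.3, 58.8 and 86.3 CPM in KO 1, 2 and 3, against 154.8, 150.002 and 141 CPM in WT 1, 2 and 3. Every KO-labelled library was below every WT-labelled one, and KO 3 stood above the other KO-labelled libraries. The means were 66.8 ± 17.0 CPM in the KO-labelled and 149 ± 6.9 CPM in the WT-labelled libraries (SD, n = 3 each), a log2 fold change of -1.15 (SE 0.13). Without KO 3 it was -1.39.

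Mertk (ENSMUSG00000014361, chromosome 2, 128698956 to 128802894, plus strand), the TAM receptor through which macrophages take up apoptotic cells, had 30.3, 34.6 and 27.0 CPM in KO 1, 2 and 3, against 70.7, 56.4 and 67.4 CPM in WT 1, 2 and 3. The groups lay apart, and here KO 3 was the lowest library, unlike for Axl. The log2 fold change was -1.08 (SE 0.12). The libraries thus differed in the balance of the TAM receptors: counts of Axl per count of Mertk were 1.82, 1.70 and 3.19 in KO 1, 2 and 3 and 2.19, 2.66 and 2.096 in WT 1, 2 and 3. That ratio overlapped between the groups, with KO 3 above all other libraries. Tyro3, the remaining TAM receptor, had 0 counts in all 6 libraries, which allows up to 0.307 to 0.441 CPM a library (3 counts; counting error only).

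Timd4 (ENSMUSG00000055546, chromosome 11, 46810800 to 46844332, plus strand), a phosphatidylserine receptor known as a marker of long-lived resident macrophages, had the largest fold change of the 9. It had 12, 9 and 13 counts in KO 1, 2 and 3, against 62, 52 and 52 counts in WT 1, 2 and 3. In CPM these are 1.62, 1.32 and 1.45 in the KO-labelled and 7.61, 5.31 and 7.01 in the WT-labelled libraries. All KO-labelled values were close together and below all WT-labelled ones. The log2 fold change was -2.16 (SE 0.33), and the small counts make this the least precise of the 4 calls. Mertk had 18.8, 26.1 and 18.6 counts per count of Timd4 in KO 1, 2 and 3, against 9.29, 10.6 and 9.62 in WT 1, 2 and 3. The ratio did not overlap between the groups, so the receptors differed in the size of their change, a description for which no test was made.

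Stab1 (ENSMUSG00000042286, chromosome 14, 31139013 to 31168641, minus strand), the scavenger receptor stabilin-1 of macrophages and sinusoidal endothelium, did not follow the other receptors. It had 4.99, 4.26 and 3.12 CPM in KO 1, 2 and 3 and 4.42, 2.96 and 3.64 CPM in WT 1, 2 and 3, which overlap (log2 0.16, SE 0.32). Its exons share 112 bases, its own 3′ end included, with Nt5dc2 on the opposite strand. Without the strand setting tags of these genes cannot be told apart; Nt5dc2 was at log2 0.34 (SE 0.21). The paralogue Stab2, named here for its relation to Stab1, had 5.39, 3.53 and 6.36 CPM in the KO-labelled and 8.46, 8.99 and 10.5 CPM in the WT-labelled libraries. Its groups did not overlap, with a log2 fold change of -0.85 (SE 0.25) and an adjusted p of 0.154.

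The 3 bridging ligands among the members were at low levels, and none of them passed the threshold. Gas6 (ENSMUSG00000031451, chromosome 8, 13465374 to 13494490, minus strand), the ligand of all TAM receptors, had 10, 19 and 18 counts in KO 1, 2 and 3 and 13, 44 and 23 counts in WT 1, 2 and 3. WT 2 alone stood high, the groups overlapped, and the log2 fold change of -0.59 had an SE of 0.46. Pros1 (ENSMUSG00000022912, chromosome 16, 62854307 to 62929346, plus strand), the gene of protein S, an anticoagulant that also binds Mertk and Tyro3, had 11, 7 and 14 counts in KO 1, 2 and 3 and 17, 9 and 20 counts in WT 1, 2 and 3. These overlap as well (log2 -0.45, SE 0.52). Mfge8 (ENSMUSG00000030605, chromosome 7, 79133768 to 79149060, minus strand), the lactadherin gene, had 29, 4 and 14 counts in KO 1, 2 and 3 and 16, 13 and 10 counts in WT 1, 2 and 3. KO 1 was the highest and KO 2 the lowest of all libraries, and the fitted log2 fold change of 0.39 (SE 0.59) turned to -0.48 without KO 1. At these counts a change of the size seen for Axl was not well resolved: the SE of these 3 genes was 0.46 to 0.59, against 0.13 for Axl.

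Nr1h3 (ENSMUSG00000002108, chromosome 2, 91184061 to 91202834, minus strand), which encodes liver X receptor alpha, the form enriched in macrophages and liver, had 3.23, 3.68 and 4.91 CPM in KO 1, 2 and 3, against 10.9, 11.4 and 11.1 CPM in WT 1, 2 and 3. The WT-labelled libraries agreed closely, and every KO-labelled library was below them. The log2 fold change was -1.48 (SE 0.23), 2.80-fold lower. Exon overlaps of Nr1h3 with Gm13783 and of Gas6 with Tmem255b, 34 bases each, lie 18684 and 2957 bases from the genes' 3′ ends. Nr1h2, the widely expressed liver X receptor beta gene, named here as its paralogue, had 58.9 ± 1.1 CPM in the KO-labelled and 54.8 ± 5.9 CPM in the WT-labelled libraries (SD, n = 3 each; log2 0.10, SE 0.10, adjusted p = 0.783). Abca1 (ENSMUSG00000015243, chromosome 4, 53030787 to 53159895, minus strand), the pump that passes cholesterol to apolipoprotein A-I, had 5.39, 3.68 and 7.25 CPM in KO 1, 2 and 3, against 9.81, 9.40 and 9.30 CPM in WT 1, 2 and 3. The groups did not overlap but the KO-labelled libraries were spread, and the log2 fold change of -0.79 (SE 0.25) did not pass the threshold. Its companion pump gene Abcg1, also named for its relation, was at log2 -0.03 (SE 0.17, adjusted p = 0.958).

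**Figure D2:**
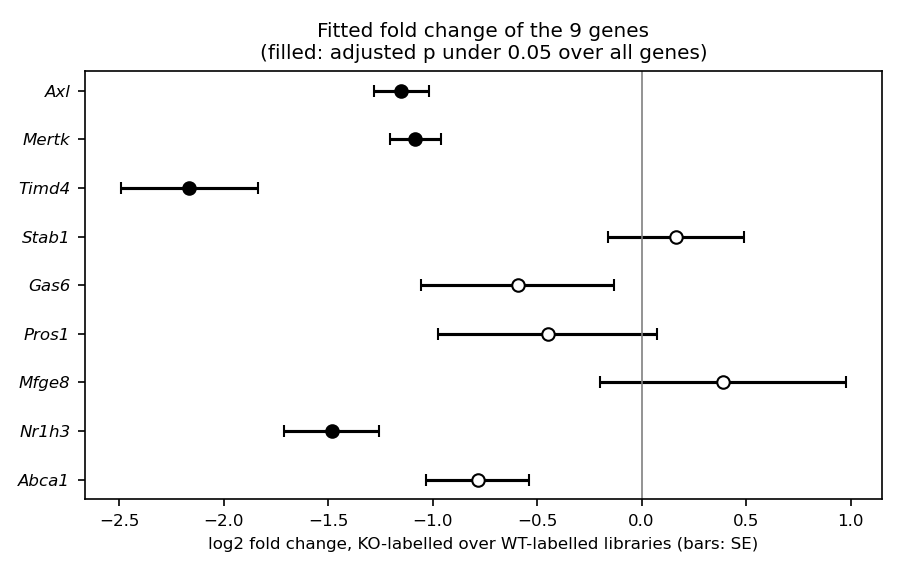
Fitted log2 fold change of each of the 9 genes, KO-labelled over WT-labelled libraries (horizontal axis), with its SE as the bar; filled points passed an adjusted p under 0.05 over all genes tested. The 4 filled points lie between -2.16 for Timd4 and -1.08 for Mertk, and the open points of Gas6, Pros1, Stab1 and Mfge8 have bars of 0.32 to 0.59.

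The rest of the pathway was read from 5 lists. Of the 103 listed genes that are no members, 85 were tested. Of these 9 fell and none rose, and their median log2 fold change was -0.01. Over all genes tested 0.789% were called lower and 0.24% higher, shares that stand beside each list below. The lists were drawn up with earlier results of these data known, so their counts are a description. Of the 85, DESeq2 called 11 lower and none higher, limma-voom 9 and none. At an unadjusted p under 0.05, 17 were lower and 10 higher. With no filter on low counts 1 listed gene, Arl4c, which encodes a small GTPase, was called higher (log2 0.55, adjusted p = 0.0220).

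Of 11 tested receptor genes beside the members, 2 fell (median -0.51). Lrp1, a large endocytic receptor that binds calreticulin on dying cells, had 18.3, 11.6 and 16.3 CPM in KO 1, 2 and 3, against 30.1, 30.1 and 34.0 CPM in WT 1, 2 and 3 (log2 -1.02, SE 0.16, adjusted p = 0.00539). Itgb5, the beta chain of the alpha v beta 5 integrin that takes Mfge8, had 5.93, 6.32 and 6.03 CPM in the KO-labelled and 12.6, 10.5 and 14.8 CPM in the WT-labelled libraries (log2 -1.05, SE 0.20, adjusted p = 0.0219). For Lrp1 and Itgb5 every KO-labelled library was below every WT-labelled one. The call of Itgb5 ended without KO 1, 2 or 3 (adjusted p 0.0726, 0.0526 and 0.0583) and without WT 1 or 3 (0.0831 and 0.0968). Its log2 fold change in those fits was -1.08 to -0.92. Itgav, the partner chain, named for that relation, was at log2 -0.35 (SE 0.22, adjusted p = 0.605).

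Of 9 tested bridging genes beside the members, 4 fell (median -0.12): the C1q subunit genes C1qa (log2 -1.01), C1qb (-0.93) and C1qc (-1.04), whose protein coats dying cells, and Fcna. Fcna, the gene of ficolin A, a lectin of plasma and macrophages, had 74.1, 78.7 and 91.9 CPM in KO 1, 2 and 3, against 187, 173 and 167 CPM in WT 1, 2 and 3. The groups were far apart (log2 -1.10, SE 0.09, adjusted p = 3.0e-05). Exons of Fcna share 90 bases with Fcnaos on the opposite strand, which itself had 0 counts in the KO-labelled libraries and 0, 1 and 1 in WT 1, 2 and 3. Mbl1, Mbl2 and Apoh, soluble bridging proteins made mainly in liver, had 0 counts in every library.

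Of 24 tested cholesterol and liver X receptor genes beside the members, 2 fell (median -0.16). DESeq2 called 3 lower and limma-voom 2, with none higher. At an unadjusted p under 0.05, 5 were lower and 1 higher. The higher gene was Arl4c (log2 0.55, SE 0.16, adjusted p = 0.154), whose groups did not overlap. Apoe, the lipid-carrying apolipoprotein and a liver X receptor target, had 137, 138 and 166 CPM in KO 1, 2 and 3, against 289, 265 and 267 CPM in WT 1, 2 and 3 (log2 -0.90, SE 0.09, adjusted p = 0.000116). Lpl, the lipoprotein lipase gene, had 27.4, 26.2 and 33.1 CPM in the KO-labelled and 50.3, 62.1 and 51.2 CPM in the WT-labelled libraries (log2 -0.91, SE 0.13, adjusted p = 0.00157). Neither gene's groups overlapped. Ch25h had 0 counts in every library.

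Of 23 tested genes of the engulfment machinery and of LC3-associated phagocytosis, 1 fell and none rose, with a median of 0.06; DESeq2 and limma-voom likewise called 1, and at an unadjusted p under 0.05 2 were lower and 3 higher. It was Dnase2a, the lysosomal nuclease that digests the DNA of engulfed cells, at 4.58, 4.56 and 5.58 CPM in KO 1, 2 and 3, against 11.2, 11.3 and 9.97 CPM in WT 1, 2 and 3 (log2 -1.13, SE 0.21, adjusted p = 0.0161). Its call ended without KO 1 or 2 (adjusted p 0.0589 and 0.0526) and without WT 1 or 2 (0.070 and 0.103), with log2 fold changes of -1.11 to -1.08. Exons of Dnase2a share 1616 bases with Mast1 on the opposite strand, which had 13, 15 and 14 counts in KO 1, 2 and 3 and 8, 16 and 12 counts in WT 1, 2 and 3. Gulp1, an adaptor of engulfment receptors, had 0 counts in every library.

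None of 18 tested genes for the signals of the dying cell passed (edgeR; 0 by DESeq2 and by limma-voom, 2 at an unadjusted p under 0.05, both higher), and their median was 0.07. Of these, Gpr132, a receptor for lysophosphatidylcholine, was at 7.42 ± 1.06 CPM in the KO-labelled and 4.30 ± 0.55 CPM in the WT-labelled libraries (SD, n = 3 each; log2 0.79, adjusted p = 0.193).

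**Figure D3:**
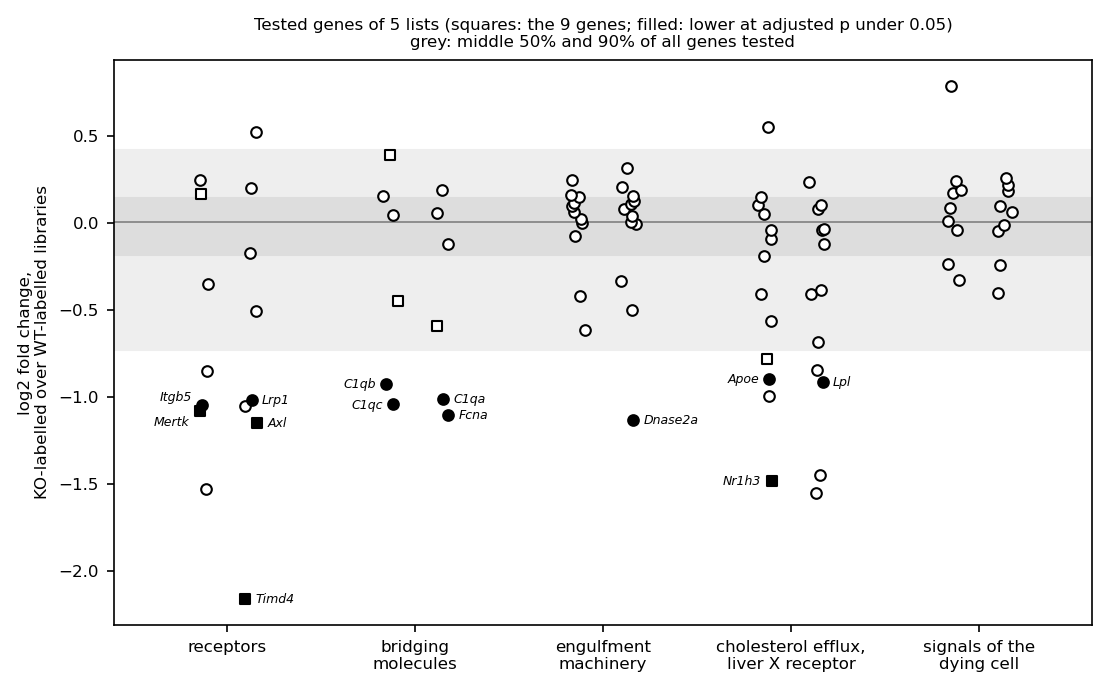
Log2 fold change, KO-labelled over WT-labelled libraries (vertical axis), of the tested genes of 5 lists (horizontal axis); squares are the 9 genes, circles the other listed genes, filled symbols were lower at an adjusted p under 0.05, and grey bands hold the middle of all genes tested. The filled symbols lie in the receptor, bridging and cholesterol lists and, with Dnase2a alone, in the engulfment list; no gene of the signals of the dying cell is filled.

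Most tested markers of macrophages were lower as well. Of 18 listed macrophage markers, none of them a member, 15 were tested and 9 fell (median -0.93). None rose, and 0 were higher at an unadjusted p under 0.05. Over all genes tested 0.789% were called lower and 0.24% higher, shares that stand beside the other cell type lists too. These lists were also chosen with earlier results of these data known, so their counts are a description. Their summed level was 839 to 964 CPM in the KO-labelled and 1350 to 1395 CPM in the WT-labelled libraries, and Clec4f, a marker of Kupffer cells, had 0 counts throughout. Its most abundant genes were Vcam1 (log2 -1.03) and Slc40a1 (-0.23), and Csf1r, which the monocyte list holds as well, was at -0.01. Summed over the 4 called members, levels were 90.4 to 120 CPM in the KO-labelled and 223 to 244 CPM in the WT-labelled libraries. The part of macrophages in these differences was not tested.

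The members and the markers also varied within the KO-labelled group. KO 3 was the KO-labelled library with the highest level for Axl, Nr1h3, Abca1 and Pros1 and for 10 of 15 tested macrophage markers. Relative to the WT-labelled mean, the log2 level of Axl was -1.42, -1.33 and -0.78 in KO 1, 2 and 3, and that of Nr1h3 was -1.71, -1.54 and -1.14. Mertk (-1.08, -0.90 and -1.25) and Timd4 (-1.87, -2.12 and -2.01) did not have KO 3 as the library nearest to the WT-labelled mean.

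**Figure D4:**
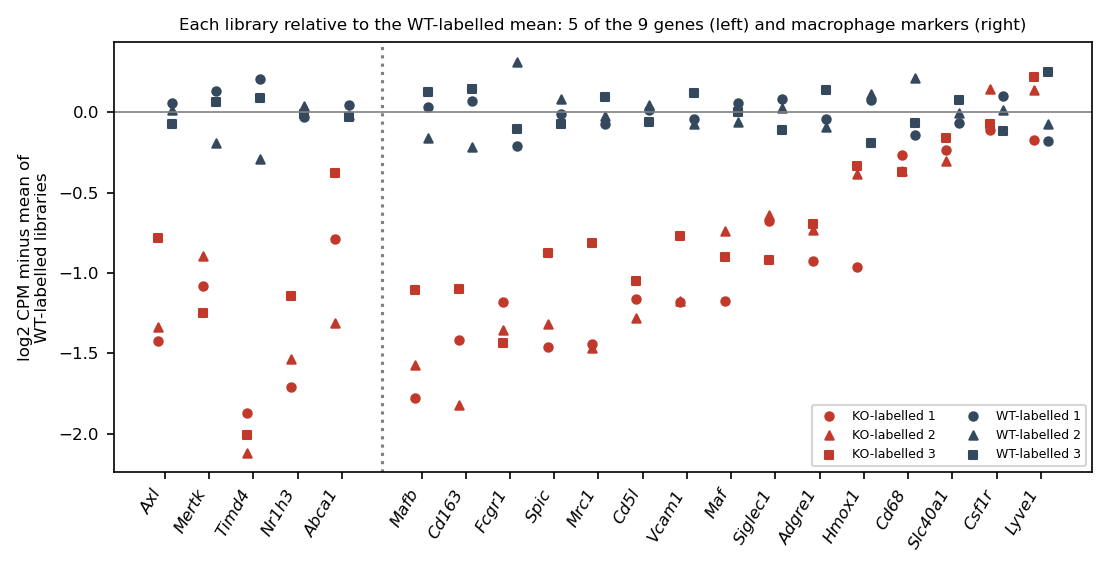
Log2 CPM of each library minus the mean of the WT-labelled libraries (vertical axis) for 5 of the 9 genes (left of the dotted line) and the tested macrophage markers (right); red symbols are KO-labelled, blue WT-labelled, and the shape gives the replicate number. KO 3 (red squares) is nearest to the WT-labelled mean for Axl at -0.78 and for Abca1 at -0.38, but is the lowest library for Mertk at -1.25.

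Other cell type lists were read in the same way, with no test between lists. Of the tested platelet and megakaryocyte genes, 3 of 9 fell, Ppbp (log2 -1.03), Pf4 (-0.77) and Itga2b (-0.99). The median of all 9 was -0.92, against -0.93 in the macrophage list. Of the 9, 8 were below 0, against 14 of 15 tested macrophage markers and 5104 of 10397 genes tested. The groups did not overlap for 6 of 9, against 13 of 15 macrophage markers and 16.8% of all genes tested. The list had summed levels of 398 to 434 CPM in the KO-labelled and 454 to 515 CPM in the WT-labelled libraries, and its most abundant genes, Gp1bb (log2 0.05) and Itgb3 (-0.17), did not pass. Among eosinophil and basophil genes 1 of 4 fell, Ccr3 (-1.15), and the sums were 29.2 to 42.1 CPM in the KO-labelled and 47.3 to 66.4 CPM in the WT-labelled libraries. Prg2, next in abundance, was at 0.01, and Mcpt8, a basophil protease gene, was at -1.79 without overlap between the groups (adjusted p = 0.0957). DESeq2 called 2 of these 4 lower and limma-voom 1. No monocyte gene of 7 passed in edgeR (1530 to 1695 CPM in the KO-labelled and 1470 to 1708 CPM in the WT-labelled libraries, led by Ly6c2 and Csf1r). Ly6c2 alone had means of 1436 CPM in the KO-labelled and 1377 CPM in the WT-labelled libraries, so these sums mostly follow that gene. The median of the 7 was -0.33, and 6 were below 0. Groups did not overlap for 2 of them, Klf4 (-1.05) and Ms4a6c (-0.83). None of 5 dendritic cell and MHC class II genes passed (112 to 165 CPM in the KO-labelled and 167 to 214 CPM in the WT-labelled libraries, led by H2-Aa and H2-Eb1). The same held for 7 genes of endothelium and stroma, Stab2 among them (33.1 to 46.6 CPM in the KO-labelled and 36.9 to 48.5 CPM in the WT-labelled libraries, led by Cxcl12 and by Lyve1, which is also a macrophage marker of the list above). At an unadjusted p under 0.05 these 3 lists had 2, 3 and 1 genes, all lower; DESeq2 called 0, 1 and 0 of them and limma-voom none. Of 13 neutrophil genes 2 rose, S100a8 (log2 0.24) and Retnlg (0.35). DESeq2 called 2 of the 13 higher and limma-voom 3, with none lower. At an unadjusted p under 0.05, 6 were higher and 1 lower, Mpo (-0.59). S100a9, second to S100a8 in abundance, was at 0.20 and did not pass (adjusted p = 0.0518). The list, which fits the labelled cell type, took 317803 to 338936 CPM of the KO-labelled and 279034 to 299088 CPM of the WT-labelled libraries. Of 8 B and plasma cell genes 2 rose, Igkc (1.498) and Jchain (1.39), the most abundant of them. DESeq2 called 0 of the 8 and limma-voom 1. The sums were 274 to 721 CPM in the KO-labelled and 151 to 189 CPM in the WT-labelled libraries. The list had a median of 0.07, with 3 of 8 genes below 0. Among these 3 was Cd79b (-0.76), whose groups did not overlap (adjusted p = 0.150). The part of these cell types in the members' differences was not tested.

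By a rule on likeness, the 5 genes nearest to the mean profile of the 9 members over the 6 libraries were Cd79b (also on the B cell list), Pou2f2, Gaa, Bzw2 and Myo9a. The measure was the Euclidean distance between log2 CPM centred on each gene's mean, among 7442 other genes at or above a 5 CPM mean, and it ran from 0.177 for Cd79b to 0.230 for Myo9a. The members themselves lay at 0.497 (Abca1) to 1.83 (Mfge8) from their own mean profile. That is farther than these 5 genes, but the 5 were picked as the nearest of 7442. Some members were also below the 5 CPM asked of those genes, so nothing is read from that comparison.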

How the data were processed

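The authors deposited 1 count table, whole numbers for each Ensembl gene in 6 libraries, unscaled. The submitters' processing notes name RSEM 1.2.3, DESeq2 and the build mm10 without saying how each was used. The sources used here do not give the aligner, annotation, strand setting or filters. Symbols came from GENCODE vM21 on GRCm38 (51596 identifiers named), as did coordinates and exon overlaps. RSEM can divide reads between similar genes.

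The test was the quasi-likelihood F test of edgeR 4.0.16 (R 4.3.3; TMM factors; filterByExpr with a minimum count of 10 and a minimum total of 15), with the group as the one term and Benjamini-Hochberg adjustment over all tested genes at 0.05. The SE is the log2 fold change divided by the square root of F. Log2 CPM used a prior count of 2. Alternatives were DESeq2 1.42.0, limma-voom (limma 3.58.1), other factors, other filters, the replicate number as a block and leaving out each library. No replicates agreed within sampling noise (chi-square per degree of freedom 4.12 to 6.79). The procedure was tested on simulated data. The text names the 9 members, Tyro3, Snph, every called gene of each pathway list or else the 2 with the smallest p (1 of which is not reported here), the most abundant and the undetected genes of each cell type list, and the 5 nearest genes; genes named for their relation to a member, other called or non-overlapping marker genes and Arl4c were added after their values were seen. The members and lists were chosen with earlier results of these data known.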

Additional observations from a re-analysis of the deposited data

How the results depend on the processing

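The 4 members past the threshold, Axl, Mertk, Timd4 and Nr1h3, were the same under all 14 alternatives, with adjusted p of at most 0.0394 and log2 fold changes between -1.39 and -1.03 for Axl, -1.19 and -1.0004 for Mertk, -2.30 and -2.05 for Timd4 and -1.69 and -1.36 for Nr1h3. Abca1 stayed below 0 and uncalled (-1.06 to -0.58; adjusted p 0.0980 to 0.433). Of the members, Mfge8 alone changed direction, to -0.48 without KO 1 (0.80 without KO 2), and Stab1 ran from 0.0039 to 0.34. The count of all called genes, 107, became 174 with DESeq2, 162 with total counts only and 287 with no filter, and 49 to 97 without 1 library; the cause was not tested. The 9 called pathway genes became 9 to 12 in the fits on all libraries (11 lower and 1 higher, Arl4c, with no filter) and 7 to 9 without 1 library. With the replicate block 92 genes, the same 4 members and the same 9 pathway genes were called. Replicate numbers showed no pairing by 1 measure. The correlation of deviations between libraries with the same number was -0.13 to -0.01, and it was higher for some libraries with different numbers. With 3 libraries a group, these values cannot decide whether libraries with the same number were handled together. Genes with few counts, such as Gas6, Pros1 and Mfge8, limit what this depth can resolve. A filter of 5 CPM in 3 libraries removed Gas6, Pros1, Stab1 and Mfge8, so it gave no value for them.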
